A study of Mus musculus with 10 samples.

Results

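The olfactory receptor (OR) genes named Olfr90 to Olfr139 hold the receptor cluster of mouse chromosome 17 that lies beside the major histocompatibility complex (MHC). A probe set was taken as a member when the platform annotation gave it a single gene symbol in this range, with or without a pseudogene suffix. Of the 35556 probe sets of the array 1034 belonged to ORs by that annotation, and 42 of these were members, each for a different gene. RefSeq places 41 of them on chromosome 17 and Olfr139 on chromosome 11, so that Olfr139 meets the numbering but lies outside the cluster. A further 7 probe sets are annotated to several receptors, of which some are in the range, and were kept apart.

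The arrays hold RNA of whole main olfactory epithelium (MOE), the tissue that senses odors, from mice aged 5 weeks, with 4 H2be-GF and 6 WT arrays. H2be-GF mice carry Omp:Flag-H2be, a transgene from which H2BE, a histone variant, is made with a FLAG tag under the promoter of olfactory marker protein (Omp), which is active in mature olfactory neurons. The paper describes a founder line set up by crosses to C57Bl/6, with several copies of the transgene. The transgene is not expressed in a band of neurons near zone 2. WT mice carry no transgene and keep their own H2be gene, as H2be-GF mice do. RNA of several animals was pooled for each array, with larger pools for H2be-GF. Both sexes are said to be mixed equally, though Xist splits the arrays of each genotype into a high and a low set, as given below. Whether each pool held both sexes was not tested. The comparison asks which receptors gain or lose RNA in the tissue when H2BE is forced on in mature neurons.

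ORs are G protein-coupled receptors that sit in the cilia of olfactory neurons and bind odorants. A neuron expresses a single allele of a single OR gene, and ORs of similar sequence form subfamilies that often lie side by side in the genome. In RNA of whole tissue, fewer neurons that chose a receptor and less RNA of it per neuron cannot be told apart. From counts of neurons in tissue sections, made for receptors outside the cluster, the paper reports that receptor changes in H2be-GF mice reflect expression frequency. For the members this was not tested here. The cluster beside the MHC is of general interest because MHC genes shape body odor, and receptors also lie beside the MHC in other mammals.

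Values are log2 signals, and a change is the mean of the H2be-GF arrays minus the mean of the WT arrays. A receptor was called when its limma p, with Benjamini-Hochberg adjustment over the ORs with a mean above 7 (748 probe sets), was under 0.05. The same test was also adjusted over all 23194 probe sets that had a symbol and averaged above 5. Arrays correlated with each other at 0.969 to 0.988. Omp was at 12.78 ± 0.03 on the 4 H2be-GF arrays (SD) and at 12.88 ± 0.04 on the 6 WT arrays (SD). The genotypes did not overlap at Omp, with 12.75 to 12.81 in H2be-GF and 12.83 to 12.96 in WT. In the transgene only the coding sequence of Omp was replaced, and whether the Omp probes read RNA of the transgene is not known here. All 12 markers of mature olfactory neurons that were listed, Omp among them, were measured above 5. Xist, the RNA of the inactive X chromosome in females, was high on 2 H2be-GF and 3 WT arrays and low on 2 H2be-GF and 3 WT arrays. The labels do not give the sex of an array. These array sets are called Xist-high and Xist-low, and changes within each are given for the 3 members whose change differed between them at an unadjusted p under 0.05 (Olfr101, Olfr119 and Olfr134) and for some others.

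The receptors of the chromosome 17 cluster had a median change of 0.09 in H2be-GF MOE, and 3 of them rose. Of the 31 members with a mean above 7, Olfr115, Olfr130 and Olfr131 were called higher and 0 were called lower. That is 9.68% higher, beside a background of 4.01% of all ORs called higher and 5.88% called lower. Without H2be-GF 1 or without H2be-GF 2 the number of members called was 0, and without H2be-GF 1 the median change was 0.05. Over all probe sets tested limma called 0 of the 41 members with a mean above 5, beside backgrounds of 0.0474% called higher and 0.0388% called lower. At an unadjusted p under 0.05, 11 of these 41 were higher and 1 was lower, beside 11% of ORs higher and 8.94% lower, and 4.35% of all probe sets higher and 4.07% lower. Genotypes did not overlap at 2 of the 41, both higher in H2be-GF, beside 3.14% of ORs without overlap higher and 4.13% lower, and 1.29% of all probe sets higher and 1.60% lower. Both have a mean above 7, where these shares of ORs were 4.01% higher and 5.48% lower. The remaining member, Olfr108, was too dim for the test, at 3.37 to 5.27 in H2be-GF and 4.20 to 5.24 in WT.

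Most of the changes were small and positive. Of the 41 members 28 had a positive change and 13 a negative one, with a median of 0.09 and a range of -0.21 to 0.36. Of the members 68.3% were positive, against 56% of the 977 other ORs with a mean above 5, whose median was 0.02, and the median over all probe sets tested was 0.01. The ORs of chromosome 16 (34 probe sets) had a median change of 0.04 with 0 called higher and 2 lower, and those of chromosome 10 (55 with a mean above 5) a median of 0.04 with 1 called higher and 0 lower. The difference between these groups and the cluster was not tested. Without Olfr139 the members' median was 0.10 and 3 were called, as with it.

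**Figure D1:**
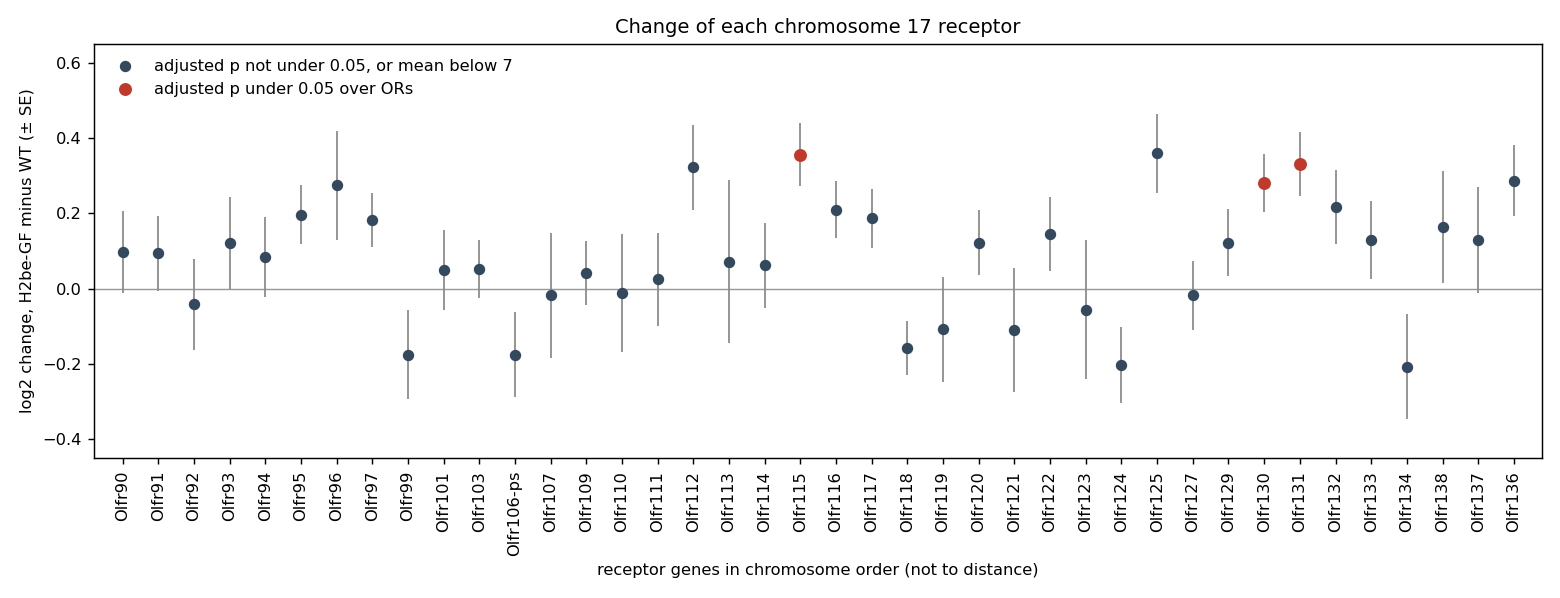
Log2 change (vertical, H2be-GF minus WT, with the SE of limma) of the 40 chromosome 17 members with a mean above 5, in chromosome order from left to right, not to distance. Red points are Olfr115, Olfr130 and Olfr131, called over ORs, and 28 of the 40 points lie above 0.

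Olfr115 was the member with the smallest p. It stood at 7.45, 7.59, 7.33 and 7.33 on the H2be-GF arrays, while the WT arrays ranged from 6.93 to 7.31 with a median of 7.05. Every H2be-GF array lay above every WT array, the nearest being WT 2. The 1.28-fold rise, a change of 0.36 (SE 0.08), had a limma adjusted p of 0.0212 over ORs and 0.251 over all probe sets. Among the settings tried, those that lost the call included leaving out H2be-GF 1 (limma adjusted p = 0.0653, change 0.35), leaving out H2be-GF 2 (0.0762, change 0.30) and a trended robust variance (0.0553). The annotation also lists Olfr115 on a probe set shared by 5 receptors, which had a change of -0.02 (SE 0.13).

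Olfr131 and Olfr130 are neighbours near the far end of the cluster, and both rose. Olfr131 stood at 8.78, 8.94, 8.76 and 8.84 in H2be-GF, against a lowest value of 8.27, a median of 8.52 and a highest of 8.70 in WT, again without overlap. Its change was 0.33 (SE 0.09), a 1.26-fold rise (limma adjusted p = 0.0337 over ORs, and 0.306 across every probe set tested). When 1 array was left out, the call was lost without H2be-GF 1, 2, 3 or 4 (0.0678, 0.106, 0.0593 and 0.0611) and without WT 3, 5 or 6 (0.0700, 0.0504 and 0.0626), with changes of 0.29 to 0.35.

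Olfr130 stood at 8.95, 8.94, 8.93 and 8.63 in H2be-GF and between 8.47 and 8.65 in WT, with a median of 8.60. On 3 H2be-GF arrays it lay above every WT array, and on H2be-GF 4 it lay within the WT range. The change of 0.28 (SE 0.08), or 1.21-fold, had a limma adjusted p of 0.0432 over ORs and 0.334 over all probe sets. The settings that lost the call included those without H2be-GF 1, 2 or 3 (0.123, 0.119 and 0.121), without WT 1, 3, 4, 5 or 6 (0.0536 to 0.0810), with ORs centred on their array mean (0.0555) and with no filter on dim probe sets (0.0558). Over those settings the change was 0.25 to 0.29.

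**Figure D2:**
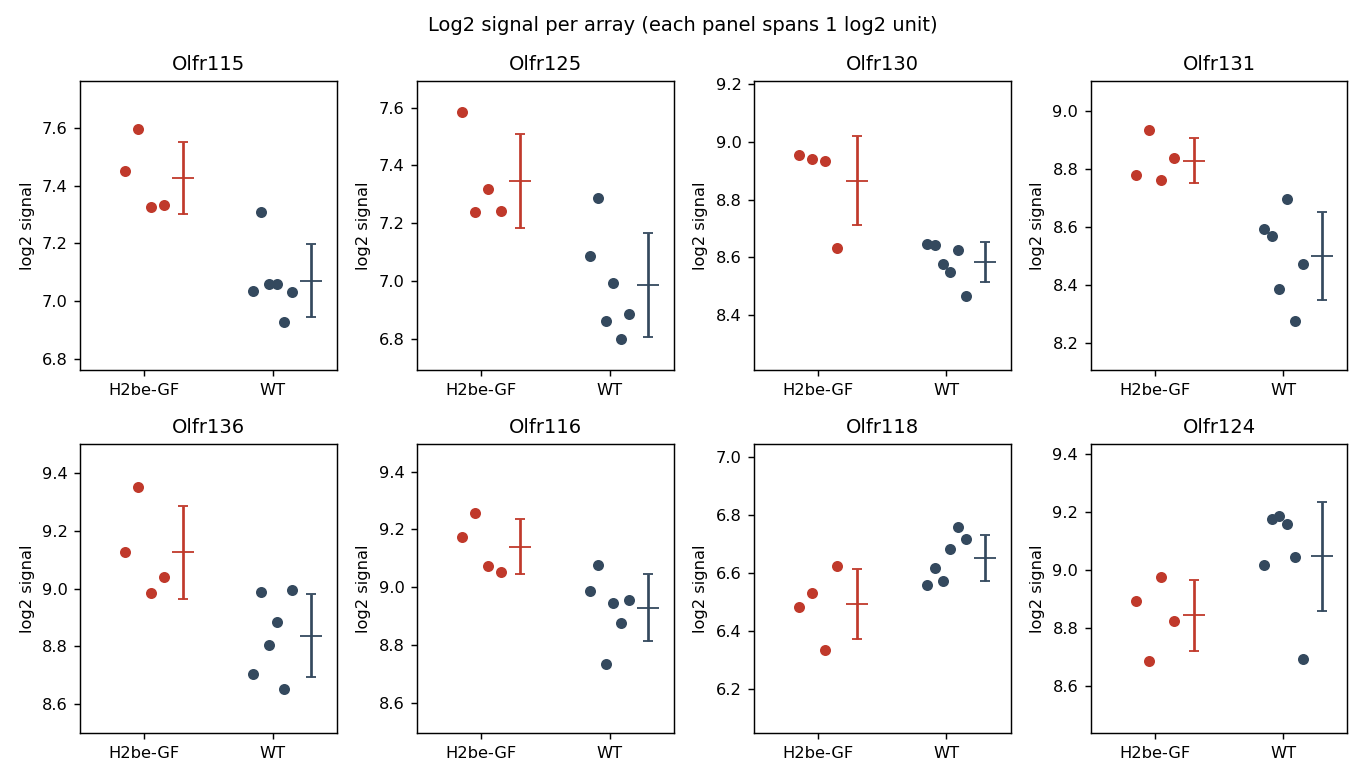
Log2 signal of 8 cluster receptors on each of the 4 H2be-GF (red) and 6 WT (dark) arrays, with mean and SD beside the points; each panel spans 1 log2 unit. Olfr115 and Olfr131 show no overlap, Olfr130 has 1 H2be-GF array (8.63) in the WT range, and Olfr118 and Olfr124 average lower in H2be-GF.

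The subfamily numbers (MOR) that RefSeq lists as synonyms group the cluster in a way the numbering rule did not use, and the largest groups were MOR256 with 16 members, MOR218 with 7 and MOR263 with 7. Olfr130 and Olfr131 belong to MOR256 and Olfr115 to MOR218. RefSeq gives a window around the start for 32 of the 42 members, and in 20 of them the gene's first base opens an ATG, so that these starts are not taken as starts of transcription. The first 50 bases of the called MOR256 neighbours are given from RefSeq on build GRCm38.p6. Olfr130 lies at chr17:38067173-38067222 on the plus strand and Olfr131 at chr17:38082927-38082976 on the minus strand.
Olfr130: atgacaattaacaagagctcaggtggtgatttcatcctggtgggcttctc
Olfr131: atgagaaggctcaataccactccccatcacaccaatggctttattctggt
Across the 45 pairs of MOR256 members with such a start a median of 17 bases of 50 were identical when set side by side without gaps, and across 138 pairs of different subfamilies 16.

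Of MOR218, the group of Olfr115, most members had positive changes. Of its 7 members 6 were positive, with a median of 0.21, and 1, Olfr115, was called. Olfr125 stood at 7.58, 7.24, 7.32 and 7.24 in H2be-GF, against 6.80 to 7.29 with a median of 6.94 in WT, where WT 2 overlapped. Its change of 0.36 (SE 0.11) missed the threshold (limma adjusted p = 0.0524 over ORs) and it was called under 8 of the 20 alternatives that gave a p, over which the adjusted p ranged from 0.0150 to 0.203.

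Olfr116 stood at 9.17, 9.26, 9.07 and 9.05 in H2be-GF and at 8.73 to 9.08 in WT, with a change of 0.21 (SE 0.08, limma adjusted p = 0.118 over ORs). Olfr112, which lay below the minimum for the OR adjustment, had 6.02, 6.40, 6.35 and 6.38 in H2be-GF, against 5.73 to 6.22 in WT. Its change was 0.32 (SE 0.11), with a limma adjusted p of 0.449 over all probe sets. In each of Olfr116, Olfr112 and Olfr125 some arrays of the genotypes overlapped.

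Olfr113, Olfr114 and Olfr127, the other members of MOR218, had changes of 0.07, 0.06 and -0.02. Olfr113 spread widely in WT, at 5.32 to 6.62, and stood at 6.00 to 6.48 in H2be-GF. The starts of these 3 genes show how alike copies in this subfamily can be. How far the probes tell such copies apart was not tested. Capitals mark bases that differ from Olfr113 at the same place. On GRCm38.p6 Olfr113 is at chr17:37575372-37575421 and Olfr114 at chr17:37590302-37590351, both on the minus strand, and Olfr127 at chr17:37903548-37903597 on the plus strand.
Olfr113: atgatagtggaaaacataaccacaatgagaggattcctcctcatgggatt
Olfr114: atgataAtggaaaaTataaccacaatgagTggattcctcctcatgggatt
Olfr127: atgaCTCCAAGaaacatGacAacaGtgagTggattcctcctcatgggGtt
Olfr114 matched Olfr113 at 47 of 50 bases and Olfr127 matched it at 38. For Olfr115 and Olfr125, the MOR218 members with the largest changes, the RefSeq start does not open an ATG, and the 60 bases before that start are given instead. They lie at chr17:37610780-37610839 on the minus strand and at chr17:37834851-37834910 on the plus strand.
Olfr115: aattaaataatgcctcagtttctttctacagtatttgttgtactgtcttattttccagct
Olfr125: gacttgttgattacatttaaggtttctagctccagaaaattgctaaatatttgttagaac

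MOR256 held 2 of the called receptors. Of the 16 members in the cluster 12 were positive, with a median change of 0.13, 2 of the 12 above the OR minimum called higher and 0 lower. The 28 MOR256 receptors elsewhere in the genome had 11 positive changes and a median of -0.07, with 0 called higher and 3 lower of 25. The difference between these sets was not tested.

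Among the MOR256 members without a call, Olfr136 stood at 9.13, 9.35, 8.98 and 9.04 in H2be-GF, against a lowest value of 8.65, a median of 8.84 and a highest of 8.99 in WT. All H2be-GF arrays but H2be-GF 3 lay above the WT range, and the change of 0.29 (SE 0.09) had a limma adjusted p of 0.0839 over ORs. With a trended robust variance its limma adjusted p was 0.00786. Olfr132 and Olfr117 had changes of 0.22 and 0.19, each with 3 H2be-GF arrays above the WT range. Olfr138, at 9.34, 9.63, 9.12 and 9.38 in H2be-GF and 8.96 to 9.74 in WT, had a change of 0.16 (SE 0.15), of 0.37 in the Xist-high set and -0.04 in the Xist-low set. The highest array of all for Olfr138 was WT 6.

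Olfr133 and Olfr134, which lie beside each other and are nearly the same at their start, had changes of opposite sign. Olfr133 stood at 7.45, 7.81, 7.61 and 7.44 in H2be-GF and 7.23 to 7.62 in WT, a change of 0.13. Olfr134 stood at 6.69, 6.69, 6.27 and 6.27 in H2be-GF and 6.35 to 7.06 in WT, a change of -0.21 (SE 0.14), at 0.14 in the Xist-high set and -0.56 in the Xist-low set. Neither was called, and the probe set that the annotation assigns to both and to Olfr135 had a change of 0.002. Below, capitals mark bases that differ from Olfr133, which matched Olfr134 at 46 of 50 bases and Olfr136 at 36. All lie on the plus strand, Olfr133 at chr17:38148590-38148639, Olfr134 at chr17:38175086-38175135 and Olfr136 at chr17:38335159-38335208 of GRCm38.p6.
Olfr133: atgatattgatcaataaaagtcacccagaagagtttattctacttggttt
Olfr134: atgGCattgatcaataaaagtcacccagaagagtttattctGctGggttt
Olfr136: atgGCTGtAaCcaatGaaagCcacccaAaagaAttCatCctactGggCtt

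Olfr124, also known as SR1, is a member of MOR256 that responds to many odorants in mouse. It stood at 8.89, 8.69, 8.97 and 8.82 in H2be-GF, against 8.69 to 9.19 with a median of 9.10 in WT. All H2be-GF arrays lay below every WT array but WT 6, which lay among them. Its change of -0.20 (SE 0.10) had a limma adjusted p of 0.260 over ORs, and was -0.34 in the Xist-high set and -0.07 in the Xist-low set. The other MOR256 members, Olfr90 to Olfr94, Olfr123 and Olfr137, had changes between -0.06 and 0.13.

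The window before the Olfr124 start holds TAATTA, the core that homeodomain factors such as Lhx2 bind. TAATTA and CCCNNGGG, the core of sites for Ebf factors, were searched in the 250 bases before each RefSeq start. Each reads the same on both strands and neither overlaps the other. TAATTA stood in 4 of the 32 member windows (12.5%), in 18.2% of 916 windows of other ORs and in 4.84% of all 32851 RefSeq windows. CCCNNGGG stood in 2 of 32 (6.25%), in 2.62% and in 11.8%. The start opens an ATG in 62.5% of member windows, in 72.7% of other OR windows and in 5.83% of all RefSeq windows. The shares of ORs therefore do not compare like with like with the share over all windows. None of the windows of Olfr115, Olfr130 and Olfr131 held either, as was so for most OR windows. The starts of Olfr130 and Olfr131 open an ATG, so the bases before them need not include a promoter. The stretch of Olfr124 with TAATTA in capitals, 122 bases before the start at chr17:37804920-37804979 on the plus strand, is shown as an example of the motif in the window of a named member.
Olfr124: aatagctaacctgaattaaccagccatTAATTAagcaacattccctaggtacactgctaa

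MOR263 was mixed. Of its 7 members 4 had positive and 3 negative changes, with a median of 0.12, and 0 were called. Olfr118, below the OR minimum, was the 1 member lower at an unadjusted p under 0.05. It stood at 6.48, 6.53, 6.33 and 6.62 in H2be-GF and between 6.56 and 6.76 in WT, with a median of 6.65. Only H2be-GF 4 overlapped the WT range, and the change of -0.16 (SE 0.07) had a limma adjusted p of 0.589 over all probe sets. Olfr95 had a change of 0.20 (SE 0.08, limma adjusted p = 0.158 over ORs), and Olfr119, with -0.41 in the Xist-high set and 0.19 in the Xist-low set, had -0.11. Olfr120, Olfr122 and Olfr129 lay between 0.12 and 0.15, and Olfr121 was at -0.11, with -0.38 in the Xist-high set and 0.16 in the Xist-low set.

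The small subfamilies showed no call. The 4 MOR250 members had changes of 0.05 (Olfr101), 0.05 (Olfr103), 0.04 (Olfr109) and -0.18 (Olfr106-ps), and that of Olfr101 was 0.26 in the Xist-high set and -0.16 in the Xist-low set. The pseudogene Olfr106-ps stood at 7.29 to 7.54 in H2be-GF and 7.19 to 7.84 in WT, where WT 6 alone was below 7.64 (limma adjusted p = 0.407 over ORs). Of MOR156, Olfr97 had 0.18, Olfr107 -0.02 and Olfr99 -0.18. Olfr99 stood at 7.66, 7.80, 8.06 and 7.79 in H2be-GF and at 7.71 to 8.24 in WT (limma adjusted p = 0.426 over ORs). Olfr96, of MOR121, had 0.27 (SE 0.15), Olfr110, of MOR249, had -0.01, and Olfr111, which has no subfamily number in the table, had 0.02, with 0.21 in the Xist-high set and -0.16 in the Xist-low set. Olfr139, the chromosome 11 receptor of MOR255, stood at 7.91, 7.52, 7.59 and 7.42 in H2be-GF and 7.58 to 7.96 in WT, a change of -0.19 (SE 0.10, limma adjusted p = 0.298 over ORs).

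**Figure D3:**
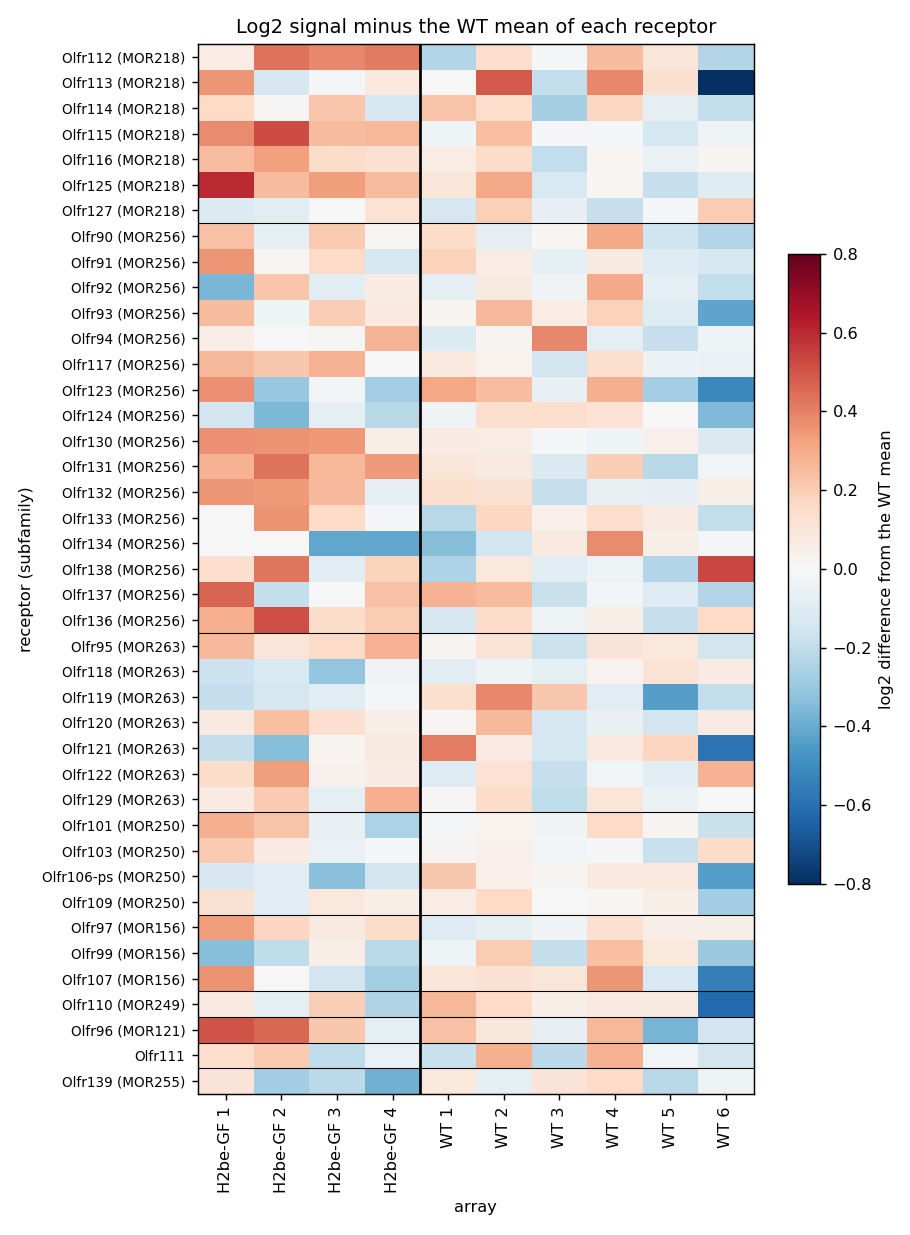
Log2 signal minus the WT mean (colour, red higher, blue lower) of the 41 members with a mean above 5 (rows, by subfamily) on each array (columns, H2be-GF to the left of the line). Of the MOR218 rows, Olfr115 and Olfr125 are red on all 4 H2be-GF arrays, while Olfr113, Olfr114 and Olfr127 lie below the WT mean on some of them. WT 6 is the bluest column for Olfr113, Olfr110 and Olfr121.

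Along the chromosome the calls lay in the last stretch, which holds most of the members. RefSeq lists 46 receptor genes between the outermost cluster members and 3 other protein-coding genes, Ubd, H2-M3 and H2-M2. The 4 receptors before Ubd had a median change of 0.10, the 4 between Ubd and H2-M3 0.19, the 6 tested between H2-M3 and H2-M2 0.01 and the 26 after H2-M2 0.13. All 3 calls and 9 of the 11 members higher at an unadjusted limma p under 0.05 were in the last stretch. It holds 19 of the 30 chromosome 17 members with a mean above 7. At that p 34.6% of the last stretch was higher, beside 50% between Ubd and H2-M3 and 0% in each of the others. No stretch was tested against another.

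Seen per array, the mean of the members above 7 was 8.02 ± 0.07 on the 4 H2be-GF arrays (SD) and 7.93 ± 0.09 on the 6 WT arrays (SD), and the genotypes overlapped. The mean of the other ORs was 8.08 ± 0.09 on the H2be-GF arrays and 8.08 ± 0.10 on the WT arrays. The difference of these means, members minus other ORs, was -0.05 ± 0.05 on the H2be-GF arrays and -0.15 ± 0.02 on the WT arrays. It lay between -0.10 and -0.01 on the H2be-GF arrays and between -0.18 and -0.13 on the WT arrays, without overlap. Only the shift of 0.10 between genotypes can be read from this, since levels of different probe sets do not compare. The shift was 0.09 in the Xist-high set and 0.10 in the Xist-low set, and is given with no test because the members were chosen with results known.

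**Figure D4:**
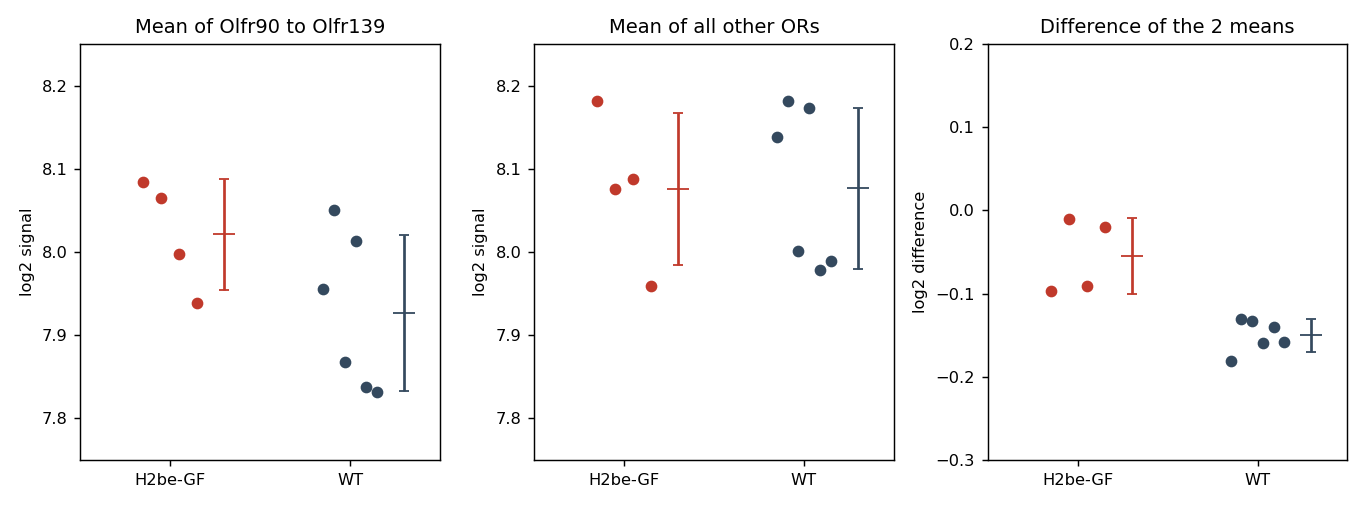
Mean log2 signal of the members with a mean above 7, of all other such ORs, and the difference of both, on each of the 4 H2be-GF (red) and 6 WT (dark) arrays, with mean and SD beside the points. The means overlap between genotypes, while the difference lies between -0.10 and -0.01 in H2be-GF and between -0.18 and -0.13 in WT.

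After removal of genotype means the median correlation between 2 members with a mean above 7 was 0.228 over the 10 arrays, and that between 2 other ORs 0.298. Arrays share normalization and tissue makeup, so these values describe the arrays and not the genes alone. In 26 of the 41 members (63.4%) the change kept its sign between the array sets, beside 69.4% of the other ORs, and Spearman's correlation of the 2 changes across members was 0.283, beside 0.512 across the other ORs. No member had a called difference between the array sets in limma (lowest adjusted p = 1, 3 members at an unadjusted p under 0.05).

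The non-receptor genes listed around the cluster had no call. The list held none of the Esp genes that flank the receptors on the side away from Gabbr1. Of 27 listed MHC neighbours of the cluster 26 were measured, and 0 were called by limma, and 0 had an unadjusted p under 0.05. Their median change was -0.06, in a range of -0.25 to 0.24. The genes inside the cluster were at 0.06 for Ubd, a ubiquitin-like modifier, at 0.10 for H2-M3, which presents formylated peptides, and at -0.002 for H2-M2. Gabbr1, a GABA receptor subunit that flanks the receptors, had a change of -0.11 (SE 0.06). Of 10 genes of MHC class I presentation 7 were measured, with 0 called and 1, H2-Q10, lower at an unadjusted p under 0.05, at a change of -0.24.

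Among 21 genes of receptor transduction and expression limma called 1 higher over all probe sets and 0 lower. The called gene was Lhx2, a homeodomain factor required in olfactory neurons, at 11.46 ± 0.03 on the H2be-GF arrays and 11.09 ± 0.06 on the WT arrays (SD; change 0.37, limma adjusted p = 0.0425). For scale, Olfr1277 and Olfr293, receptors outside the cluster, changed by -0.73 and 0.38 (limma adjusted p = 0.00134 and 0.00725 over ORs), against which the largest member change was 0.36. Hist2h2be, the gene of H2BE, had -0.23 (SE 0.06, limma adjusted p = 0.297 over all probe sets), and whether its probes read the transgene is not known here.

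Marker lists give RNA levels of listed genes of each cell type, which need not follow the makeup of the tissue. The mean over the 12 markers of mature neurons, with Omp among them, lay between 11.68 and 11.70 on the H2be-GF arrays and between 11.70 and 11.80 on the WT arrays. These means did not overlap before rounding, with a median change of -0.09 and 0 called. Of the 12, 3 (Omp, Cnga2 and Rtp1) were lower without overlap and 0 higher, beside 1.60% of all probe sets lower and 1.29% higher. The mean over 3 markers of respiratory epithelium lay between 9.42 and 9.59 in H2be-GF and between 9.64 and 9.72 in WT, also without overlap and with 0 called. At an unadjusted limma p under 0.05, 2 of these 3 were lower and 0 higher, beside 4.07% of all probe sets lower and 4.35% higher. Limma also called 0 of 4 markers of immature neurons, 3 of progenitors, 3 of horizontal basal cells, 3 of supporting cells, 3 of vomeronasal neurons and 6 of leukocytes, and their list means overlapped. The part of tissue makeup in the receptor values was not tested.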

How the data were processed

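Signals of Affymetrix Mouse Gene ST arrays were deposited by the authors as log2 values per probe set. Their methods name Expression Console with IterPLIER summaries and sketch-quantile normalization, and arrayQualityMetrics to look for outlying arrays. Software versions and the build are not given in the sources used here. A shift common to most genes cannot be seen after quantile normalization, and dim probe sets are the least certain. Probe sets were named from the platform annotation, with several-symbol probe sets left out of members, and symbols, subfamily synonyms, gene order and start windows came from RefSeq (GRCm38.p6). Other coordinates are not given, since the build of the array annotation is not stated.

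Differences were tested in limma 3.58.1 (R 4.3.3; lmFit, eBayes, no covariate, two-sided), fitted on all 23194 probe sets with a symbol and a mean above 5, with Benjamini-Hochberg adjustment over these and, after the study's methods, over ORs with a mean above 7. The fit was also run on simulated data as a check of the code. Noise there was independent between probe sets, while ORs on these arrays vary together, so it gives no error rate for these data. For lists the probe set of highest mean stood for a gene. Members and lists were chosen with earlier results of these data known. Named first were members called, the 5 with the smallest p each way, and, among the 41 members tested, those with the 4 highest and 2 lowest WT means, and the other members were then described by subfamily, so that all are accounted for. Arrays are pools that the labels mark as replicates, so p-values measure the spread between pools, and the number of arrays limits the precision. The array sets were split at the middle of the range of Xist. Alternatives were other scalings, adding 16 to the linear signal, a trended robust variance, weighted arrays, blocking on replicate number, the Xist set as covariate, other filters and leaving out each array, and, added after seeing the data, the members without Olfr139 and values within the Xist sets. Plots were drawn with matplotlib 3.10.9.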

Additional observations from a re-analysis of the deposited data

Results flagged for a closer look

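In 8 of 82 groups of a member's values on the arrays of a genotype, 1 array lay far from the others. Chance alone would mark about 1 in 20 of independent groups, but these groups share the same arrays. An excess over chance was therefore not tested. WT 6 was the low array in 4 of the 8, at 7.19 for Olfr106-ps (next array 7.64), 7.78 for Olfr109 (8.05), 7.49 for Olfr110 (8.16) and 8.69 for Olfr124 (9.02). H2be-GF 4 was low for Olfr130, at 8.63 against 8.93 for the next, and H2be-GF 1 was low for Olfr112, at 6.02 against 6.35. WT 2 was high for Olfr115, at 7.31 against 7.06, and WT 3 was high for Olfr94, at 7.24 against 6.88. Without WT 6 the change of Olfr124 was -0.27 (limma adjusted p = 0.0603 over ORs) and that of Olfr106-ps was -0.26 (0.0603).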

How the results depend on the processing

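The count of 0 members called lower over ORs and of 0 called over all probe sets was the same under all 21 alternatives. The count called higher, 3 of 31, was 0 with the replicate block and ran from 0 to 4 when 1 array was left out, 0 without H2be-GF 1 or 2 and 1 without H2be-GF 3 or WT 3, 5 or 6. The other alternatives gave 2 to 4. With the replicate block 6 ORs in all were called, against 74, and 47 without H2be-GF 1 and 33 without H2be-GF 2. Over all probe sets the 20 calls became 5 with that block, 114 with a trended robust variance, 36 with a minimum of 7 and 12 with ORs centred. The replicate numbers do not pair the arrays, as deviations of same-numbered arrays correlated at 0.53, 0.22, -0.42 and 0.26. With that block the changes of Olfr115, Olfr130 and Olfr131 were 0.31, 0.26 and 0.27 (limma adjusted p = 0.0853, 0.128 and 0.118), and the median change of the members was 0.03 against 0.09. That median was 0.05 to 0.12 when 1 array was left out, lowest without H2be-GF 1. The shift of the members relative to other ORs was 0.06 to 0.11, lowest with no filter. Olfr113 turned to -0.10 with the replicate block and to -0.022 and -0.090 without H2be-GF 1 and WT 6, where leaving out 1 array gave -0.090 to 0.17, and Olfr138 was at -0.038 in the arrays low in Xist. The cause was not tested. Near background, changes of dim members are the least certain.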
